A study of Mus musculus with 6 samples.

Results

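Cytosolic ribosomal protein genes code for the proteins of the ribosome outside the mitochondria. They were taken by symbol, as Rpl or Rps followed by a number and a few suffixes, together with Rplp0, Rplp1, Rplp2 and Rpsa. The rule found 83 of the 24822 genes in the deposited tables, of which 32 belong to the small subunit and 51 to the large subunit. It takes in paralogues with tissue-restricted expression, such as Rpl3l, and Rps4l, which is annotated as a transcribed pseudogene. It leaves out, among others, Fau, Rack1 and Rps3a1, which are described further on with the other genes of the pathway.

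The cells were macrophages sorted from the injured sciatic nerve of C57BL/6 mice that carried both Macblue and Cx3cr1egfp/+, at day 14 after CCI, the nerve injury as the labels abbreviate it. Cells with CD64 and CD11b and without SiglecF and Ly6G were divided by reporter colour, and both groups carried the same alleles and the same injury. EGFP+ cells stood for macrophages resident in the nerve and ECFP+ cells for recently recruited ones, so the names of the groups rest on the reporters. There were 3 libraries per group. For each of them about 400 cells came from nerves of 3 pooled mice, and full-length cDNA was amplified through 18 cycles before sequencing. No library of uninjured nerve was among those analysed here.

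The ribosome is built from a small subunit, which decodes the mRNA, and a large subunit, which joins the amino acids. Because each ribosome holds about the same set of proteins, cells make these proteins in matched amounts, and macrophages, like other growing or secreting cells, need many ribosomes. Most of the mRNAs begin with a C followed by a run of pyrimidines, the terminal oligopyrimidine (TOP) tract, through which mTORC1 and the RNA-binding protein Larp1 control their translation together. RNA sequencing reads the amount of these mRNAs and not their translation.

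The region around the transcription start is shown for 8 genes, as the tract shared by the family is best seen in the letters. Each window runs from 30 bases before to 20 bases after a start that RefSeq gives on GRCm38.p6, read 5′ to 3′ on the strand of the gene. Capitals mark the longest run of C and T that lies at least in part within 10 bases of the start. Rpl13a is the gene with the firmest difference between the groups, Rps12 and Rpl38 had the widest difference of their subunits, Rps6 is the substrate of S6 kinase, and Rpl35 is among the most abundant members. Their windows lie at chr7:45128726-45128775 (minus strand), chr10:23787190-23787239 (minus strand), chr11:114668550-114668599 (plus strand), chr4:86857348-86857397 (minus strand) and chr2:39005112-39005161 (minus strand), in that order.
Rpl13a: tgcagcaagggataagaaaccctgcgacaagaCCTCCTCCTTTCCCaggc
Rps12: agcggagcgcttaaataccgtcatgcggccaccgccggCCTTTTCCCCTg
Rpl38: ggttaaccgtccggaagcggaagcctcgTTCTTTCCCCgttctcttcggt
Rps6: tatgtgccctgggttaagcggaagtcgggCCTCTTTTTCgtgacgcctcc
Rpl35: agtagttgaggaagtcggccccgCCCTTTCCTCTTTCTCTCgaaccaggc

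The remaining windows have no run of at least 8 pyrimidines so close to the start RefSeq gives. They belong to Rps3 and Rpl5, which also act outside the ribosome, and to Rpl3l, the paralogue of striated muscle. Their positions are chr7:99483690-99483739 (minus strand), chr5:107900498-107900547 (plus strand) and chr17:24727796-24727845 (plus strand).
Rps3: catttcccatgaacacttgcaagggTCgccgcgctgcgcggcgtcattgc
Rpl5: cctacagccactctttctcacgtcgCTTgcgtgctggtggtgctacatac
Rpl3l: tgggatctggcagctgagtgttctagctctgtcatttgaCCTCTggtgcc

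Such a run of at least 8 pyrimidines was present in 29 of the 62 members with a RefSeq entry of 250 bases before to 50 bases after the start, or 46.8%, against 15.8% of all 27025 genes with an entry. A C at the start followed by 4 pyrimidines was found in 14 of 62 members, or 22.6%, against 3.0% of all genes. The motif CCGGAAG, bound by ETS factors, was present on either strand in 40.3% of the members and in 9.9% of all genes. AAGATGGC, a motif of YY1, was present in 8.1% and 3.2%, and TATAAA in 11.3% and 15.7%. These are matches of letters and say nothing of binding. They also depend on the starts RefSeq gives, and whether these cells use those starts was not tested. The Rpl5 window, for example, holds the run ctctttctc, which ends before the 10 bases searched on that side. The tested members with the run had a median log2 difference of -0.76 between the groups (28 genes) and those without it -0.69 (31 genes). The gap between these medians was not tested.

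Totals were 16668691 to 27510960 expected counts per library, and between 11436 and 13071 genes had at least 1 count. Resident libraries 2 and 3 stood apart from resident library 1 and from the recruited libraries in the level of the ribosomal genes, and results are therefore also given without them. All 7 macrophage markers listed were detected in each library, with Csf1r at 999 to 1484 CPM in resident and 1181 to 1604 CPM in recruited libraries. Mertk was the lowest, at 37.0 to 90.1 CPM. Itgam (394 to 698 CPM in resident, 833 to 1120 CPM in recruited) and Cd68 (1975 to 2139 against 2408 to 2623 CPM) did not overlap between the groups. Of the 7, 5 leaned towards recruited and 2 towards resident cells. Of these markers edgeR called 0 and DESeq2 called 1, Itgam. The summed level of 12 cycling markers was 310 to 661 CPM in resident and 80.2 to 135 CPM in recruited libraries, and it was highest in resident library 2. Log2 differences are given as recruited minus resident throughout, and a gene with more mRNA in resident cells has a value below 0. In these bulk samples, fewer cells of a type and less RNA per cell cannot be told apart.

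Ribosomal protein mRNAs took up a larger share of the resident libraries than of the recruited ones. In resident libraries 1, 2 and 3 they made up 0.769, 1.17 and 1.11% of the counts, and in recruited libraries 1, 2 and 3 they made up 0.653, 0.665 and 0.569%. The groups did not overlap, but resident library 1 lay nearer to the recruited libraries than to the other resident ones. The mean was 1.01 ± 0.215% (SD, n = 3) in resident and 0.629 ± 0.0527% (SD, n = 3) in recruited cells. As a share of the summed FPKM, which divides counts by transcript length, it was 2.71 ± 0.464% and 1.84 ± 0.148%.

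Both subunits differed by about the same factor. The small-subunit genes summed to 7112, 11302 and 10498 FPKM in resident libraries 1 to 3 and to 6254, 6231 and 5204 FPKM in recruited libraries 1 to 3. For the large subunit the sums were 8239, 13086 and 11961 FPKM against 7067, 7196 and 6075 FPKM. The ratio of the small to the large sum was 0.863, 0.864 and 0.878 in resident and 0.885, 0.866 and 0.857 in recruited libraries. The groups overlapped in this ratio, with means of 0.868 ± 0.00823 and 0.869 ± 0.0145 (SD, n = 3 each), while the sums themselves were 1.63 and 1.64 times higher in resident cells for the small and the large subunit.

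**Figure D1:**
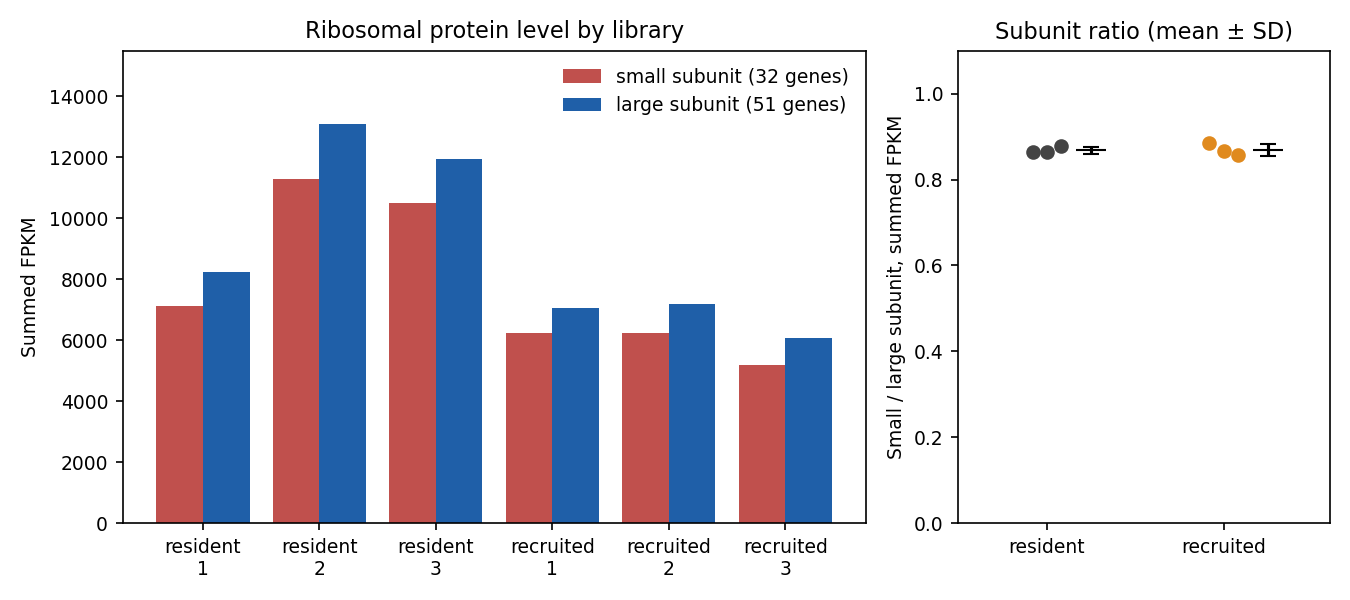
Left, summed FPKM of the 32 small-subunit and 51 large-subunit genes in each library; right, the ratio of the small to the large sum per library as points, with the mean and SD of each group beside them. The sums are highest in resident libraries 2 and 3, while the ratio stays between 0.857 and 0.885 in all 6 libraries.

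Levels differed widely between the members. Among the 80 members that passed the filter on low counts, the mean FPKM over the 6 libraries ran from 1.52 to 763, with a median of 154. The most abundant small-subunit genes were Rps27l (763 FPKM), Rps19 (621), Rps14 (618), Rps9 (572) and Rps29 (546). Of the large subunit, Rpl38 (582 FPKM), Rpl41 (514), Rpl32 (500.0), Rplp1 (434) and Rpl35 (426) stood first. The ranges of neighbours in this order overlapped over the libraries, so their order is not fixed by these data. Short transcripts led the list: over the 80 members, mean FPKM and effective length had a Spearman correlation of -0.554, a description in which the points share libraries and in which length enters the FPKM itself.

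The effective length, the length over which a fragment can start, was recovered from the counts and FPKM of each gene. For Rps20 it was 3260 bases, and GENCODE M21 lists 1 coding transcript for it, of 3706 bases. For Rps15a it was 4947 bases, while its 6 coding transcripts there run from 250 to 5179 bases with a median of 638. Both genes had a low mean FPKM, 15.3 for Rps20 and 8.75 for Rps15a, and the effect of the transcript lengths used on these levels was not tested.

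Of the 80 members tested, 79 had a negative log2 difference, against 49% of all 11354 tested genes. The median was -0.75, or 1.69-fold higher in resident cells, with quartiles of -0.88 and -0.60. Over all tested genes the median was 0.01. The small subunit had 32 of 32 genes below 0 with a median of -0.76, and the large subunit had 47 of 48 with a median of -0.69. Rps12 marked the lower end at -1.29 and Rpl3l the upper end at 0.02.

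Few single genes passed the test of all genes. With edgeR's quasi-likelihood test and Benjamini-Hochberg adjustment, 1 member was called in the resident direction and 0 in the recruited direction, where 0.255% and 0.0617% of all tested genes were. Without adjustment, 73 members had p under 0.05 with the higher level in resident cells and 0 in recruited cells, against 8.65% of all genes in the resident direction. DESeq2 called 39 members, all higher in resident cells, against 3.49% of all genes with an adjusted p. Limma-voom called 0 members, against 0.282% of all genes in either direction. It gave 68 members an unadjusted p under 0.05 in the resident direction, against 7.42% of all genes. The smallest adjusted p of the members not called by edgeR was 0.103, and 55 members had an adjusted p under 0.2. In 56 of the 80 members the lowest resident library lay above the highest recruited one in CPM, against 12.6% of all tested genes.

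**Figure D2:**
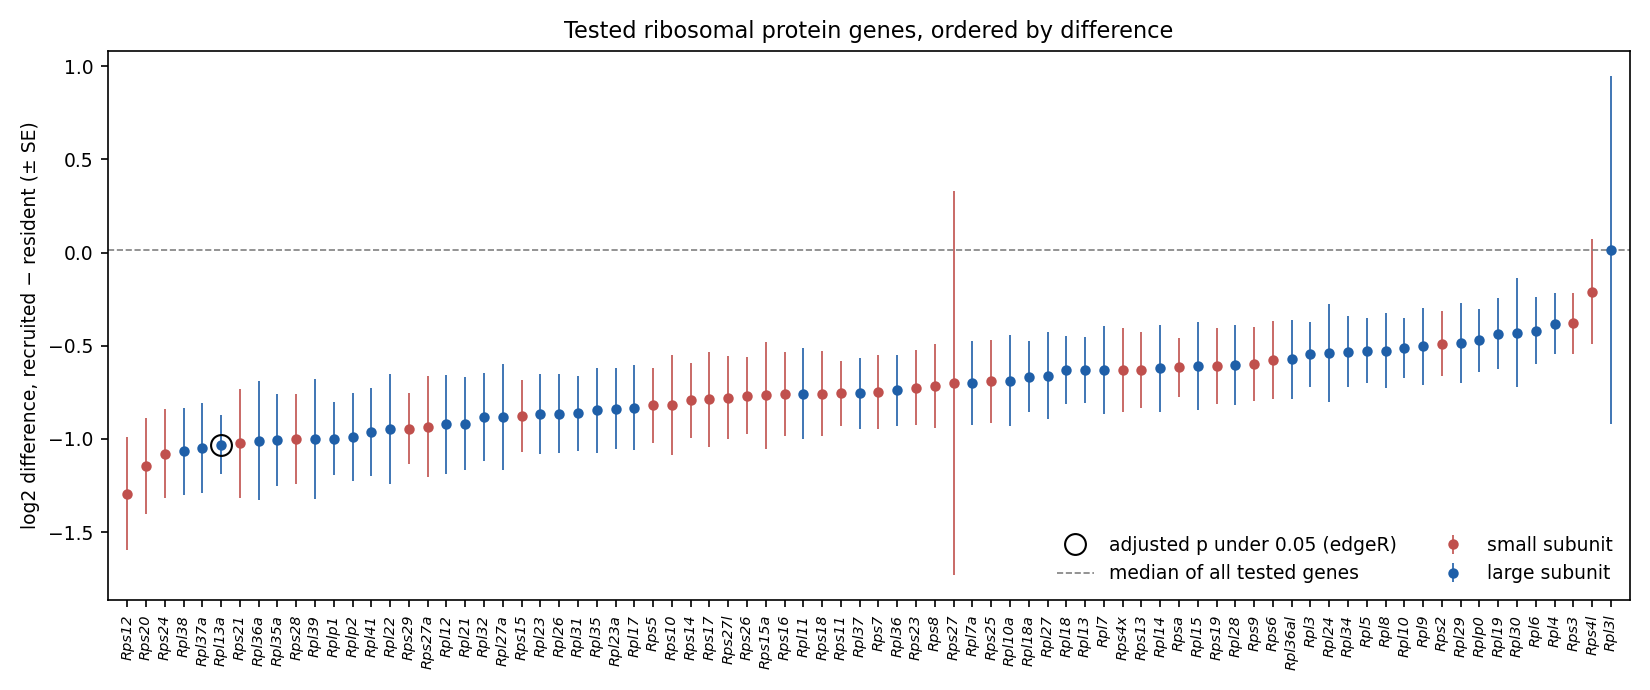
Log2 difference, recruited minus resident, of each of the 80 tested ribosomal protein genes with its standard error, ordered by size and coloured by subunit; the dashed line is the median of all tested genes and the ring marks the gene with an adjusted p under 0.05. Rpl13a carries the ring, and 79 of the 80 points lie below 0.

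Rpl13a was the member past the threshold. Its protein sits in the large subunit and, in human monocytic cells treated with interferon-γ, leaves the ribosome to join a complex that silences the translation of inflammatory mRNAs. In resident libraries 1 to 3 it had 149, 187 and 193 FPKM, and in recruited libraries 1 to 3 it had 88.9, 86.5 and 87.7 FPKM. The groups lay far apart, and resident library 1, low for most members, was here also well above the recruited libraries. The log2 difference was -1.03 ± 0.16 (SE; edgeR adjusted p = 0.0493), or 2.04-fold higher in resident cells. DESeq2 gave an adjusted p of 2.87e-06. Over the alternatives, DESeq2 among them, its adjusted p ran up to 0.238 and its log2 difference from -1.16 to -0.68. The gene lies at chr7:45125563-45128745 on GRCm38.p6 and spans 4 snoRNA genes and Mir5121, and no source used here says whether the counting used strand. Its coding transcripts share 36.4% of their 75-base windows with other annotated genes, none of which is in the deposited table.

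The widest differences of the small subunit belonged to Rps12, Rps20 and Rps24, none of which passed edgeR's threshold. Rps12 was read at 91.1, 186 and 166 FPKM in resident and 67.1, 68.6 and 52.3 FPKM in recruited libraries 1 to 3. Resident library 1 lay nearer to the recruited libraries than to resident libraries 2 and 3, and the log2 difference was -1.29 ± 0.30 (edgeR adjusted p = 0.117). Rps20 was read at 14.2, 26.0 and 22.7 FPKM against 9.80, 10.3 and 8.62 FPKM, with a log2 difference of -1.14 ± 0.26 (edgeR adjusted p = 0.109). Rps24, mutated in some human families with Diamond-Blackfan anaemia, was read at 42.3, 69.7 and 68.8 FPKM against 31.6, 30.01 and 25.2 FPKM, with a log2 difference of -1.08 ± 0.24 (edgeR adjusted p = 0.107). In all 3 genes the groups did not overlap and resident library 1 was the lowest resident one.

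The most abundant small-subunit genes had differences on both sides of the subunit's median of -0.76. Rps27l, a paralogue of Rps27 that p53 induces in human cells, was read at 654, 1162 and 1035 FPKM in resident and at 621, 572 and 535 FPKM in recruited libraries 1 to 3. Its log2 difference was -0.78 ± 0.22 (edgeR adjusted p = 0.157). Rps19, the gene most often mutated in Diamond-Blackfan anaemia in humans, had 564, 850 and 806 FPKM against 539, 554 and 414 FPKM and a log2 difference of -0.61. For both genes resident library 1 lay just above the highest recruited library. Rps14, which is lost in a human myelodysplastic syndrome, and Rps29 had log2 differences of -0.79 and -0.94, and Rps9 had -0.60.

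Members with a known role outside or at the edge of the ribosome were spread over the range. Rps6, whose phosphorylation by S6 kinase is a common readout of mTORC1, had 70.0, 107 and 105 FPKM in resident and 70.1, 66.5 and 55.7 FPKM in recruited libraries. Resident library 1 fell among the recruited libraries there, and the log2 difference was -0.58 ± 0.21 (edgeR adjusted p = 0.234). Rps3, which lines the channel where mRNA enters and also acts in DNA repair, had 137, 182 and 155 FPKM against 123, 136 and 110 FPKM and a log2 difference of -0.38 ± 0.16. Its resident library 1 lay just above recruited library 2 in FPKM and below it in CPM (223 against 233 CPM). Rpsa, also known as the laminin receptor, had 74.4, 92.8 and 90.5 FPKM against 61.2, 57.3 and 51.6 FPKM, and the groups did not overlap (log2 difference -0.61 ± 0.16, edgeR adjusted p = 0.137). Rps27a, made as a fusion with ubiquitin, had 165, 338 and 251 FPKM against 151, 140 and 112 FPKM and a log2 difference of -0.93 ± 0.27.

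In the large subunit the widest difference was that of Rpl38, which in mouse embryos is needed for the translation of Hox mRNAs. It was read at 539, 1035 and 732 FPKM in resident and at 427, 409 and 349 FPKM in recruited libraries 1 to 3, without overlap. The log2 difference was -1.07 ± 0.24 (edgeR adjusted p = 0.107). Rpl41, the smallest ribosomal protein, had 464, 868 and 674 FPKM against 387, 376 and 314 FPKM and a log2 difference of -0.96, and Rpl32 and Rpl35 had -0.88 and -0.85.

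The stalk of the large subunit, which recruits the elongation factors, is made of Rplp0 with the acidic proteins Rplp1 and Rplp2. Rplp1 had 428, 626 and 658 FPKM in resident and 311, 299 and 284 FPKM in recruited libraries, a log2 difference of -0.999 ± 0.20 (edgeR adjusted p = 0.103). Rplp2 was close to it, with 312, 578 and 500 FPKM against 254, 254 and 224 FPKM and a log2 difference of -0.99 ± 0.24. Rplp0 had 270, 373 and 317 FPKM against 227, 261 and 214 FPKM, and its log2 difference was -0.47 ± 0.17. Groups did not overlap for any of these genes in FPKM. In CPM, on which the test rests, resident library 1 of Rplp0 (307 CPM) lay below recruited library 2 (308 CPM).

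Rpl5 and Rpl11, which hold Mdm2 and thereby raise p53 when ribosome assembly is disturbed, had log2 differences of -0.53 ± 0.18 and -0.76 ± 0.24. Rpl5 had 52.6, 71.5 and 63.4 FPKM against 45.5, 46.7 and 39.3 FPKM, and Rpl11 had 115, 181 and 180 FPKM against 113, 99.1 and 79.2 FPKM. For both genes the lowest resident library, library 1, lay above the highest recruited one. Rpl22, needed for T cell development in mice, had 15.8, 21.6 and 26.0 FPKM against 13.6, 11.8 and 7.81 FPKM, with a log2 difference of -0.95 ± 0.29 (edgeR adjusted p = 0.18).

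The paralogues of restricted expression were barely detected. Rpl10l, a testis paralogue of Rpl10, had no count in any library, and 3 counts correspond to 0.105 to 0.179 CPM in these libraries. Rpl39l, of testis too, had counts in recruited libraries 1 (0.179 CPM) and 3 (0.741 CPM) and none in the other 4. Rpl32l was read at 0.0597 to 0.36 CPM, and neither was tested. Rpl3l had 1.78, 1.65 and 1.09 FPKM in resident and 2.05, 1.34 and 1.23 FPKM in recruited libraries, while its ubiquitous partner Rpl3 had 152, 199 and 200 FPKM against 114, 144 and 125 FPKM. Rpl3l was the single tested member above 0, at 0.02 ± 0.93, and this sign turned under 5 of the alternatives. Rpl10 and Rpl39, the ubiquitous partners of the testis genes, had log2 differences of -0.51 ± 0.16 and -1.001 ± 0.32.

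Some members have close copies, between which counting can divide reads. The counts of Rpl36a, Rpl36al, Rps4x and Rps4l were whole numbers in every library, so no division was seen in these pairs. Rpl36a and Rpl36al code for nearly the same protein, and Rpl36al was the higher, with 289, 492 and 435 FPKM against 304, 277 and 269 FPKM. Rpl36a had 78.6, 170 and 99.2 FPKM against 64.5, 64.9 and 50.2 FPKM. Their log2 differences were -0.57 ± 0.21 and -1.01 ± 0.32 in the order Rpl36al and Rpl36a. Rps4x had 107, 169 and 177 FPKM against 106, 106 and 86.7 FPKM, and its copy Rps4l had 31.2, 18.7 and 24.0 FPKM against 24.5, 22.3 and 17.8 FPKM, so that Rps4l was highest in resident library 1, where Rps4x was the lowest of its group. The log2 difference of Rps4l was -0.21 ± 0.28 and that of Rps4x was -0.63 ± 0.23.

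Rps27 was the most uneven member. Its FPKM was 36.9, 3.04 and 127 in resident and 58.4, 46.1 and 2.76 in recruited libraries 1 to 3, so both groups held a library close to 3 and the groups overlapped fully (log2 difference -0.70 ± 1.03, edgeR adjusted p = 0.792). Of the 75-base windows of its coding transcripts 42.4% also occur in Rps27rt, a retrocopy outside the symbol rule, or in other annotated genes. Rps27rt had 355, 679 and 449 FPKM against 316, 349 and 274 FPKM. Together the pair had 64.1, 114 and 102 CPM in resident and 59.2, 63.2 and 45.3 CPM in recruited libraries, an order much like that of the other members. With the pair counted as 1 gene, a step chosen after seeing the data, the log2 difference was -0.74 ± 0.24 (edgeR adjusted p = 0.192). Rpl34 with Rpl34-ps1 had 111, 152 and 136 CPM against 93.2, 83.2 and 82.0 CPM.

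**Figure D3:**
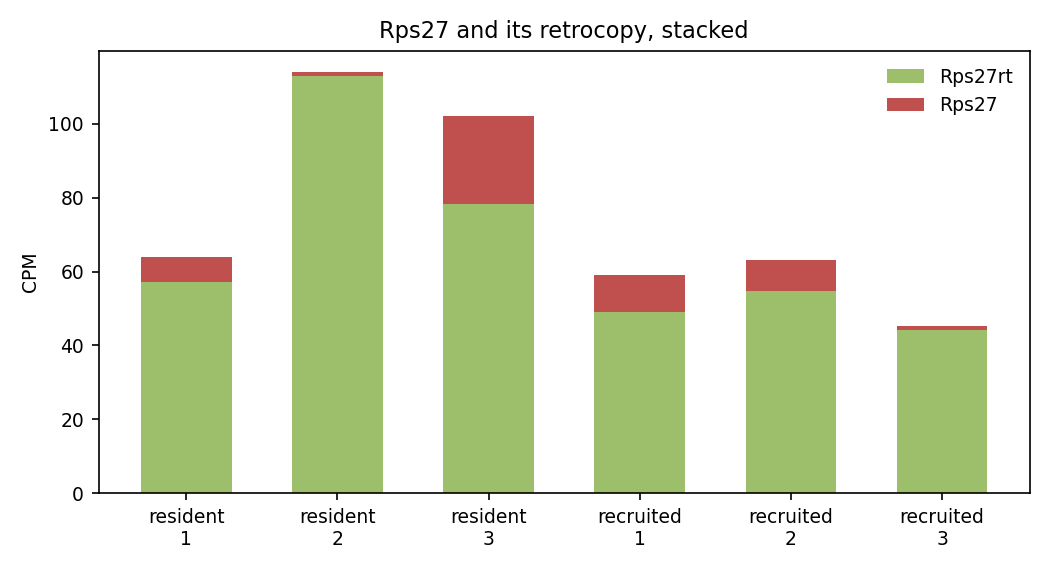
CPM of Rps27 stacked on that of its retrocopy Rps27rt in each library. The part given to Rps27 is nearly nil in resident library 2 and recruited library 3, while the stacked sum is higher in each resident library (64.1, 114 and 102 CPM) than in the recruited ones (59.2, 63.2 and 45.3 CPM).

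Sequence shared with other annotated genes is common in the family, mostly with genes that are not in the deposited table. Of the 81 members with coding transcripts in GENCODE M21, 77 share some 75-base window with another annotated gene and 17 share one with a gene in the deposited table, and the median member shares 26.7% of its windows. Fractional counts, a sign that reads were divided between genes, appeared in 7 members: Rpl26, Rpl30, Rpl31, Rpl34, Rpl5, Rps25 and Rps27. Within the span of 29 members lie 58 snoRNA genes, and 23 members overlap another gene that is no snoRNA, so reads of those genes may be counted with them.

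The members varied together from library to library. Resident library 2 was the highest of the 6 for 53 of the 80 tested members and resident library 3 for 25, while recruited library 3 was the lowest for 74. The median member lay above its own mean log2 CPM by 0.59 and 0.53 in resident libraries 2 and 3. It lay at -0.08 in resident library 1 and at -0.28, -0.24 and -0.52 in recruited libraries 1 to 3. Resident libraries 2 and 3 exceeded every recruited library in 77 and 79 members, against 35.8% and 36% of all tested genes. Resident library 1 did so in 57 members, against 30.1% of all genes.

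**Figure D4:**
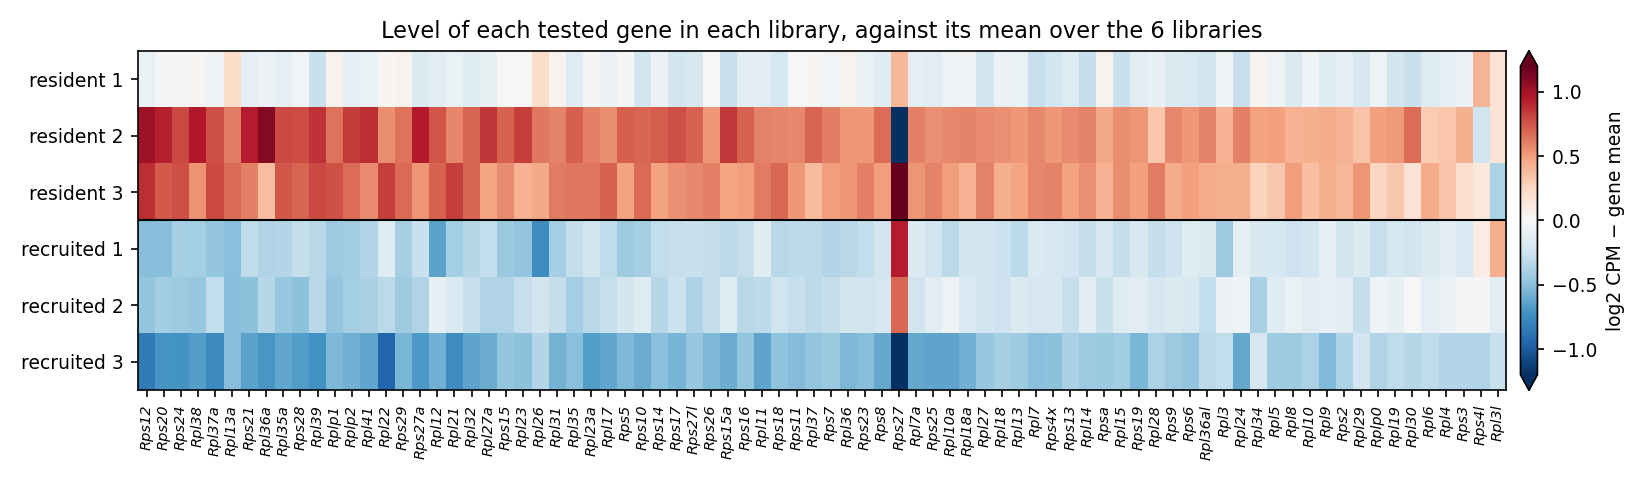
Log2 CPM of each tested member in each library minus the mean of that gene over the 6 libraries, with red above and blue below the mean and genes in the order of their difference between the groups. Resident libraries 2 and 3 are red for nearly all genes, resident library 1 is close to 0, and recruited library 3 is the darkest blue.

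The size of the difference therefore depended on which resident libraries were used. Without resident libraries 2 and 3, the median over the members was -0.23 (0.02 over all genes), and 76 of the 81 members then tested were below 0, against 48.1% of all genes. That fit, in which resident library 1 stood alone and was assumed to vary like the others, called 0 members with edgeR, with 8 at an unadjusted p under 0.05 in the resident direction, against 0.0903% and 4.38% of all genes. Without resident library 1, the median was -0.92 and 61 of 80 members were called higher in resident cells, against 2.81% of all genes. Leaving out resident library 2 or 3 or any 1 recruited library left 0 members called by edgeR. In these fits 44 to 66 members had an unadjusted p under 0.05 in the resident direction, against 5.42 to 6.87% of all genes. Few genes were called in the whole table either. Without resident library 2 or 3 edgeR called 3 and 5 of all genes. Without recruited library 1, 2 or 3 it called 1, 0 and 13, with 11614 to 11740 genes tested in these fits.

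The difference between the groups followed transcript length across the whole table. Over 11354 genes the log2 difference and the effective length had a Spearman correlation of 0.337, and over the 80 members it was 0.378; the genes share the same 6 libraries, and no p is given. The members are short, with a median effective length of 528 bases against 2562 bases for all tested genes. Among all genes under 300 bases the median log2 difference was -0.71, and 13 members of that length had -0.96. From 300 to 600 bases it was -0.54 for all genes and -0.76 for 35 members, and from 600 to 1200 bases -0.32 and -0.63 for 21 members. From 1200 to 2400 bases it was -0.06 and -0.61 for 9 members, among them Rps3, Rpsa, Rpl5 and Rps24. Over 2400 bases all genes had 0.19, and the 2 members there, Rps20 and Rps15a, had -0.96. In each class the members' median lay below that of all genes.

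**Figure D5:**
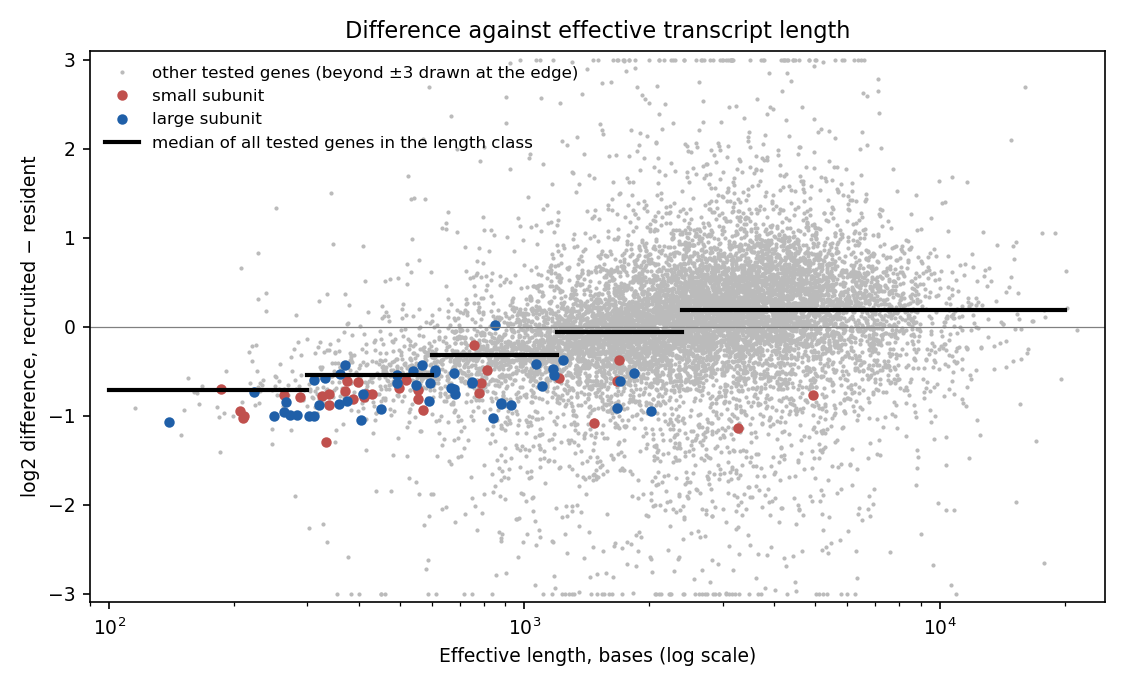
Log2 difference, recruited minus resident, against effective transcript length on a log axis, with small-subunit and large-subunit genes over all other tested genes in grey; black lines are the medians of all tested genes in each length class, and grey points beyond 3 on either side are drawn at the edge. Short genes as a whole lie below 0, and the ribosomal genes lie mostly below the line of their class.

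Length moved with the groups library by library as well. The Spearman correlation of a gene's deviation from its mean with its effective length was 0.126, -0.246 and -0.289 in resident libraries 1 to 3 and 0.219, 0.314 and 0.271 in recruited libraries 1 to 3. The libraries with the highest ribosomal level were thus those in which short genes in general stood high. With an offset that takes the trend on length out of each library, the median over the members was -0.22 (small subunit -0.21, large subunit -0.24), against 0.00 over all tested genes. Below 0 remained 72 of 80 members, against 49.9% of all genes. edgeR with this offset called 0 members, with 21 at an unadjusted p under 0.05 in the resident direction, against 0.273% and 6.63% of all genes. Rpl13a was at -0.68 (edgeR adjusted p = 0.066) and Rps24 at -0.94, while Rps27l, Rps19 and Rps9 were at -0.12, -0.01 and -0.09.

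Ribosomal proteins whose symbols the rule does not take had values within the range of the members. The 6 described here were all below 0, with a median of -0.60, edgeR called 0, 5 had an unadjusted p under 0.05 and DESeq2 called 1, Rps3a1. Over all tested genes 49% were below 0, and in the resident direction edgeR called 0.255%, 8.65% had an unadjusted p under 0.05 and DESeq2 called 3.49%. Fau, made as a fusion with a ubiquitin-like protein, had a log2 difference of -0.51 ± 0.17. Rack1, a scaffold on the small subunit, had 163, 223 and 236 FPKM in resident and 158, 159 and 135 FPKM in recruited libraries, a difference of -0.49 ± 0.18. Rpl7l1, with an effective length of 2420 bases, was at -0.06 ± 0.12, above every tested member except the barely detected Rpl3l.

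The median of other mRNAs with a TOP tract lay between that of the members and that of the whole table. Their effective lengths ran from 289 bases (Snhg1) to 3667 bases (Eif4b), and most were longer than the members' median of 528 bases. The part of length in this order was not tested. Of 19 listed, 17 were below 0 with a median of -0.39, edgeR called 0, 9 had an unadjusted p under 0.05 and DESeq2 called 4, all in the resident direction. The shares over all tested genes were 49% below 0, 0.255% called by edgeR, 8.65% with an unadjusted p under 0.05 and 3.49% called by DESeq2 in that direction. Tpt1, a growth-related protein, had 445, 651 and 523 FPKM against 365, 379 and 358 FPKM and a log2 difference of -0.58 ± 0.17. Eef1a1, the elongation factor that brings aminoacyl-tRNA to the ribosome, had 302, 407 and 386 FPKM against 302, 343 and 264 FPKM and a log2 difference of -0.28 ± 0.17, with overlap of the groups. Naca and Btf3, which bind nascent chains at the ribosome, were at -0.64 and -0.32.

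The medians of genes that control or build ribosomes lay close to that of the whole table. Effective lengths ran from 794 to 8396 bases in the regulators and from 552 to 17640 bases in ribosome biogenesis. The part of length in these medians was not tested. Of 15 regulators of TOP mRNA translation 6 were below 0, with a median of 0.05, and edgeR, DESeq2 and an unadjusted p under 0.05 each gave 0 genes. Among them Eif4ebp1, a translation repressor that mTORC1 switches off, was at 0.16 ± 0.15 and Cnbp at -0.13 ± 0.15. Of 42 genes of ribosome biogenesis 25 were below 0, with a median of -0.08. There edgeR called 0, 4 had an unadjusted p under 0.05 in the resident and 1 in the recruited direction, and DESeq2 called 1 in each direction. Over all tested genes 49% were below 0, 8.65% had an unadjusted p under 0.05 in the resident and 8.13% in the recruited direction, and DESeq2 called 3.49% and 2.61%, so the calls in the resident direction lie near the background. Eif6, which keeps the large subunit from joining too early, was at 0.05 ± 0.13, and Nop10, a short gene whose protein guides the modification of rRNA, was at -0.75 ± 0.22. Of 10 ribosome-associated chaperones and quality control factors tested 7 were below 0 with a median of -0.22, edgeR and DESeq2 called 0, and 1 had an unadjusted p under 0.05 in the resident direction, against 8.65% of all genes.

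Markers of other states and cells were set beside these values. All 12 cycling markers were below 0, against 49% of all genes, and edgeR called 3, Stmn1, Cdc20 and Nusap1, against 0.255% of all genes in the resident direction. Their summed level followed the order of resident libraries 2, 3 and 1, as did the ribosomal sum. Single markers did not all do so: Top2a and Rrm2 were highest in resident library 1, and Nusap1, Tyms and Mcm5 in resident library 3. The others were highest in resident library 2, Ccnb2 with library 1 second. In recruited libraries 1 to 3 the cycling sum was 80.2, 135 and 81.1 CPM, and the ribosomal sum 6496.5, 6761.6 and 5618.5 CPM. Whether cycling had a part in the ribosomal level was not tested. B cell markers summed to 21.1 to 30.3 CPM in resident and 4.94 to 7.64 CPM in recruited libraries. Nearly all of this was Cd79b, which edgeR called. Ms4a1 had 0.629 CPM in resident library 1 and 0 in the others. Cd79a was 0 in all resident libraries and reached 0.247 CPM in recruited library 3, and the defining gene Pax5 was at 0 in all libraries. Fibroblast markers summed to 14.8 to 31.3 against 2.34 to 8.99 CPM, with Pdgfra at 0, and dendritic cell markers, mostly Cd209a, to 117 to 608 against 67.8 to 199 CPM. Whether cells of these types had a part in the ribosomal difference was not tested. Schwann cell markers (232 to 294 against 239 to 531 CPM, Sox10 at 0), neutrophil markers (33.8 to 74.6 against 47.1 to 114 CPM, Ly6g and Mpo at 0) and endothelial markers (11.5 to 17.3 against 4.72 to 16.1 CPM) overlapped between the groups. T cell markers reached 0.938 CPM, NK cell markers 5.07 CPM with Ncr1 and Eomes at 0, and mast cell markers 0.119 CPM with Cpa3 at 0.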

How the data were processed

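The authors deposited a table of expected counts per gene and a table of FPKM per gene, with counts divided by length and library size, as the file headers and the values show. Per the submitters' processing notes, the build was mm10 and STAR 2.5.3a and RSEM 1.2.28 were among the tools, beside edgeR, DESeq2, Trimmomatic and FastQC. No source used here gives the annotation, the use of strand or the sequencing run of each library.

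Of 24848 entries, 26 had a date for a symbol (0.121 to 0.138% of counts) and were left out. Expected counts were rounded and tested with edgeR 4.0.16 in R 4.3.3, using the quasi-likelihood test, TMM, filterByExpr, group as the only term and Benjamini-Hochberg adjustment over 11354 genes at 0.05. CPM is TMM-scaled. Floors of 3 counts cover counting error only, as reads carry no molecular identifiers. Replicates are separate pools of mice, per the labels, which do not say whether resident and recruited libraries of the same number came from the same mice. Effective length is CPM divided by FPKM, and the length offset is a lowess curve with a span of 0.3. Tables and overlaps of genes came from RefSeq and GENCODE M21. The edgeR and DESeq2 fits were tried on simulated counts, with changes planted in random genes that were wider than the median of the members. Those counts held no trend on length and no genes that vary together, so they do not check the fits for these features.

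Alternatives were other scalings and filters, DESeq2 1.42.0, limma 3.58.1, the offset, the replicate number as a block, left-out libraries and summed copies. Deviations of libraries with the same number correlated by 0.0204, 0.0667 and 0.046, and the numbers were not taken as pairs.

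Members, lists and named genes were chosen with earlier results of these data known. Named were the 5 most abundant members of each subunit, those past the threshold, the 4 widest differences per direction at a mean CPM of at least 10, paralogue pairs, members of known role, the 2 lowest members, and from each other list those past the threshold or the 2 most abundant. Others (Rps15a, Rpl34, Rpl34-ps1, Rps27rt, Rps3a1, Rpl7l1) were named after their values were seen. A few genes of the lists are not reported here.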

Additional observations from a re-analysis of the deposited data

How the results depend on the processing

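The 36 genes called in the whole table became 58 without a filter, 73 at 10 CPM in 3 libraries, 650 with DESeq2, 97, 8 and 63 with limma on log2(FPKM + 1), the same without a filter and log2(FPKM + 0.1), 14 with the replicate block and the length offset together, 11 without resident replicates 2 and 3, and 0 to 580 with any single library left out. The 1 ribosomal protein gene called became 39 with DESeq2, 2 with limma on log2(FPKM + 1) and 0 with limma-voom, with limma on log2(FPKM + 1) without a filter, with the length offset and without resident replicates 2 and 3. With any single library left out it ran from 0 to 61. The replicate block gave 28 genes and 0 members (Rpl13a at -1.02, adjusted p = 0.0886), with the length offset 0 members. No source used here says whether same-numbered libraries share mice, and their deviations barely correlated (0.0204 to 0.0667), so the numbers were not taken as pairs.

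The median of the small-subunit and large-subunit genes was -0.213 and -0.242 with the length offset, -0.211 and -0.243 with the offset and the block, and -0.236 and -0.226 without resident replicates 2 and 3. Both kept their sign in every alternative run. The small-to-large ratio differed between the groups by a log2 value of -0.00166 by FPKM and 0.0312 by CPM. These values are resident over recruited, unlike the other log2 differences. The scalings moved the median of all genes by less than 0.1.

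Of 900 values of named genes under the alternatives 821 kept direction and side of the threshold. Weaker were 11, all of Rpl13a, 45 were stronger and 23 reversed, none of them past the threshold. Rpl3l turned to -0.00854 with upper-quartile factors, -0.029 with limma-voom and -0.169 in the fit that kept resident replicate 1 alone. With any single library left out it ran from -0.235 (recruited 1) to 0.161, with -0.152 for resident 3. Rps27 turned to 0.0121 with the length offset, 0.0136 with the block, 0.54 with both, and with any single library left out it ran from -1.23 to 0.679 (resident 3). With the length offset, alone and with the block, Rpl36al turned to 0.0714 and 0.0737, Rps4l to 0.122 and 0.174, Fau to 0.0483 and 0.0525, Rps27rt to 0.101 and 0.104 and Btf3 to 0.0906 and 0.0877. Without resident replicates 2 and 3, Eef1a1 turned to 0.0538, Cnbp to 0.177 and Btf3 to 0.00804. Eif6 ran from -0.0225 (resident 1 left out) to 0.115. The cause was not tested. No source used here gives the sequencing run of each library, so run and group cannot be told apart, and 3 pools a group, each of about 400 cells, limit the precision.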
